A study of Rattus norvegicus with 12 samples.

Results

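The genes described here were those of the interferon response and of antigen presentation. They were chosen by symbol, from the interferon regulatory factors and interferon-induced antiviral genes through the immunoproteasome and peptide transporter to the major histocompatibility complex (MHC), whose rat genes carry the prefix RT1. The symbols gave 66 genes of the 14217 that had a probe set of their own. Of the 65 that matched RefSeq by gene ID, 22 lie on chromosome 20, and RT1-A was not matched, so its chromosome was not read. Each gene was read by the probe set with the highest mean. The arrays measured atrial appendages of male Sprague-Dawley rats of 225 to 275 g, an outbred laboratory strain, killed by decapitation 28 days after either an aorto-caval shunt, a connection between aorta and vena cava that overloads the heart with volume, or a sham operation. RNA came from pools of 2 appendages, and right and left atria after sham or shunt made 4 groups of 3 arrays, with no other treatment or allele named in the labels. Nothing in the labels tied a right pool to a left pool of the same replicate number. All values are log2 values, so that a difference of 1 is a doubling.

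Interferons bind receptors at the cell surface, which act through STAT and IRF transcription factors on genes carrying an interferon-stimulated response element (ISRE) or a gamma-activated site (GAS). The products include antiviral effectors, the immunoproteasome that cuts proteins into peptides, and the TAP transporter that delivers those peptides to MHC class I molecules, which nearly all cells display. MHC class II molecules are shown mainly by macrophages, dendritic cells and B cells, and depend on the transactivator Ciita. In the heart, resident macrophages and endothelial cells are among the cells that carry these genes.

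Array medians lay between 5.44 and 5.47. The values had been normalized between arrays, which brings the medians together, so this does not test whether the arrays differed in overall level. The labels name the tissue as atria and ventricles; the mean of 6 atrial cardiomyocyte markers was 11.68 to 12.05 on every array, and the mean of 5 ventricular markers was 7.99 to 8.18 in right sham, 8.56 to 9.69 in right shunt, 5.94 to 6.28 in left sham and 6.59 to 7.02 in left shunt atria. Left shunt replicate 3 stood apart from its group, with a mean of 5 adipocyte markers of 7.23 against 5.61 to 6.15 on the other 11 arrays. The actin probe sets, whose 3′-minus-5′ difference grows as RNA degrades, gave 1.58 to 1.82 in right sham, 1.91 to 2.03 in right shunt, 1.31 in left sham and 1.14 to 1.39 in left shunt atria. Every right array thus lay above every left array. The part of this in the shunt differences and in the left-right differences was not tested. In bulk tissue, fewer cells of a type and less RNA per cell cannot be told apart. The RT1 genes are close copies of each other, so which copy a probe set read is uncertain. In group means 60 of the 66 genes reached 5 in at least 1 group. B2m, the light chain of class I molecules, lay at 12.48 to 12.86 over the arrays, and Cd74, the invariant chain of class II molecules, at 10.17 to 10.76.

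After shunt, the class II genes RT1-DMb and RT1-Da were higher than in sham in both atria. RT1-DMb, a chain of the DM molecule that loads peptides onto class II molecules, rose 1.62-fold in the right and 1.68-fold in the left atrium. RT1-Da, the alpha chain of a class II molecule that displays those peptides, rose 1.46-fold and 1.48-fold. In the right atrium Gbp2, a guanylate-binding GTPase induced by interferon, also rose 1.31-fold, and Ciita fell 1.30-fold. The other members did not pass the test in either atrium alone, and most differences were under 0.4.

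RT1-DMb measured 6.79, 6.74 and 6.68 on right sham replicates 1 to 3 and 7.34, 7.68 and 7.27 on the right shunt replicates. In the left atrium it measured 6.48, 6.44 and 6.04 in sham and 7.10, 7.25 and 6.85 after shunt. Every shunt array lay above every sham array of its atrium. The differences were 0.69 ± 0.14 (SE) on the right and 0.75 ± 0.14 on the left (limma, adjusted p = 0.0234 and 0.0321). The right-sided call was lost without any right array other than shunt replicate 3, and the left-sided call without left or right sham replicate 2 or 3 or left shunt replicate 1 or 2, with adjusted p up to 0.0989 and 0.217 over all alternatives.

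RT1-Da measured 9.29, 9.18 and 9.08 in right sham and 9.82, 9.69 and 9.68 in right shunt atria. It measured 8.99, 8.997 and 8.90 in left sham and 9.62, 9.72 and 9.24 in left shunt atria. Here too the groups did not overlap, with left shunt replicate 3 the lowest of the shunt arrays. The differences were 0.55 ± 0.11 and 0.57 ± 0.11 (limma, adjusted p = 0.0232 and 0.0368). The right-sided call was lost without any right array other than sham replicate 1, and the left-sided call without any of the 12 arrays other than left shunt replicate 3, with adjusted p up to 0.0868 and 0.242 over all alternatives.

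**Figure D1:**
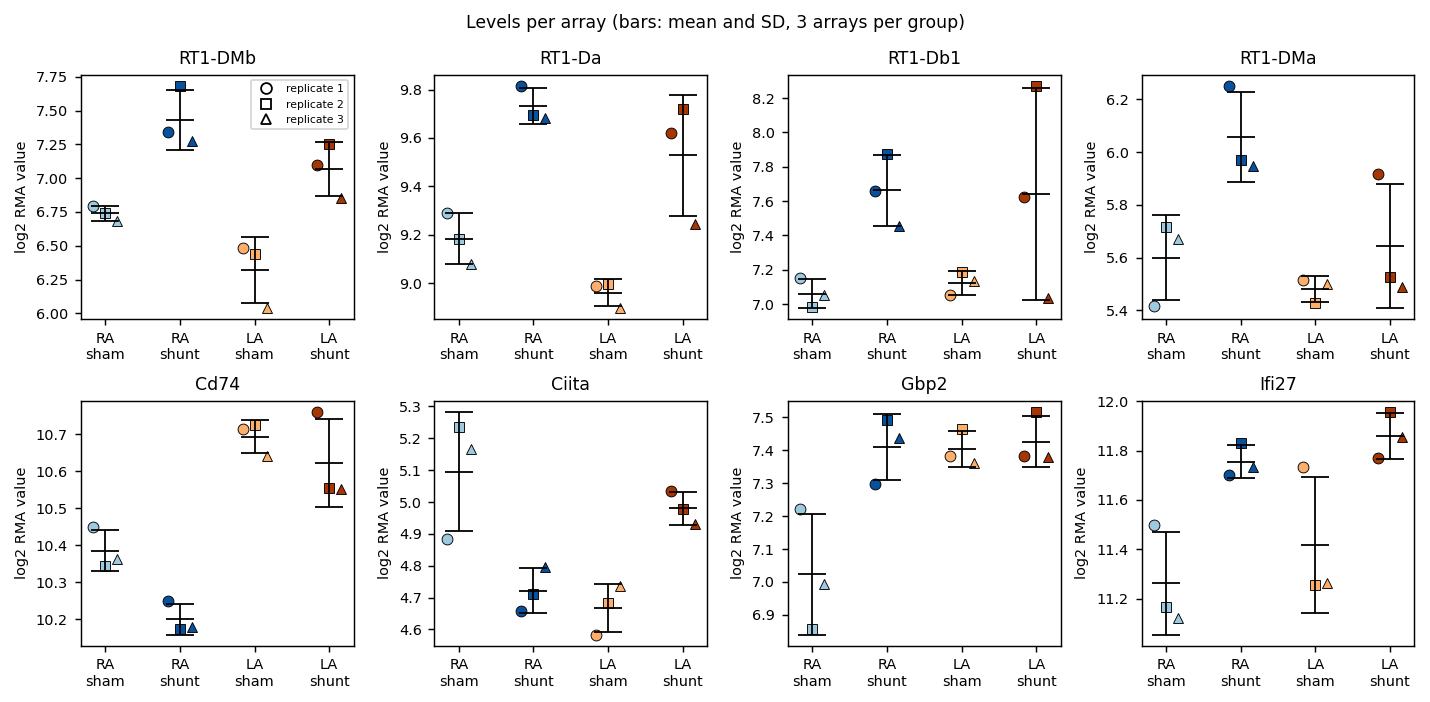
Log2 values of 8 genes on each array, by group (RA, right atrium; LA, left atrium); symbols give the replicate number and bars the mean and SD of 3 arrays. RT1-DMb and RT1-Da lie higher after shunt in both atria without overlap, Gbp2 and Ciita differ in the right atrium, and left shunt replicate 3 is the lowest left shunt array for RT1-DMb, RT1-Da and RT1-Db1.

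The remaining class II genes did not all follow. RT1-Db1, a class II beta chain, measured 7.15, 6.98 and 7.05 in right sham and 7.66, 7.87 and 7.46 in right shunt atria, and 7.05, 7.19 and 7.13 in left sham and 7.62, 8.27 and 7.04 in left shunt atria. The right groups did not overlap, and in the left atrium replicate 3 after shunt lay below every sham array. Its differences of 0.60 ± 0.22 and 0.52 ± 0.22 did not pass (limma, adjusted p = 0.159 and 0.328). RT1-DMa, the partner chain of RT1-DMb, gave 0.46 ± 0.12 on the right and 0.16 ± 0.12 on the left (limma, adjusted p = 0.0681 and 0.61). Cd74, which escorts class II chains out of the endoplasmic reticulum, measured 10.45, 10.34 and 10.36 in right sham and 10.25, 10.17 and 10.18 in right shunt atria, where the groups did not overlap and the shunt arrays were the lower ones. Its difference of -0.19 ± 0.07 did not pass (limma, adjusted p = 0.194), nor did that of -0.07 ± 0.07 on the left. Ifi30, a thiol reductase that prepares antigens for class II loading, gave 0.26 ± 0.08 and 0.09 ± 0.08, which did not pass either.

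Ciita measured 4.88, 5.24 and 5.17 in right sham and 4.66, 4.71 and 4.80 in right shunt atria, and 4.58, 4.68 and 4.74 in left sham and 5.03, 4.98 and 4.93 in left shunt atria. All right shunt arrays lay below right sham, and all left shunt arrays lay above left sham. On the right the difference was -0.37 ± 0.09 (limma, adjusted p = 0.0498), and on the left 0.31 ± 0.09 (adjusted p = 0.147). A second Ciita probe set gave -0.02 and -0.18, neither of which passed. These are low levels, close to the limit of 5 used for dim probe sets.

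Gbp2 measured 7.22, 6.86 and 6.99 in right sham and 7.30, 7.49 and 7.44 in right shunt atria, which did not overlap. In the left atrium it measured 7.38, 7.46 and 7.36 in sham and 7.38, 7.52 and 7.38 after shunt, so that the right sham arrays stood apart below the other 9. The right difference was 0.39 ± 0.09 (limma, adjusted p = 0.0488) and the left 0.02 ± 0.09. Its relatives Gbp4 and Gbp7 gave 0.34 ± 0.13 and 0.28 ± 0.16 on the right and 0.06 ± 0.13 and 0.05 ± 0.16 on the left, and none of these passed. The right-sided calls of Gbp2 and Ciita lay close to the threshold of 0.05, and each was lost without any array other than right sham replicate 1 and left shunt replicate 3, and both were lost after quantile normalization again and when only the right arrays were fitted, the adjusted p reaching 0.173 and 0.176 over all alternatives. With the mean of its 2 probe sets the right-sided difference of Ciita was -0.20 (limma, adjusted p = 0.119).

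Over the mean of both atria 4 of the 66 genes rose and 0 fell, and the 2 added to RT1-DMb and RT1-Da were Ifi27 and Rsad2. The fit of this mean counted right and left arrays as independent of each other. For genes whose pools vary together in both atria its p-values can be too small. Ifi27, a small hydrophobic protein strongly induced by type I interferon, measured 11.50, 11.16 and 11.12 in right sham and 11.70, 11.83 and 11.73 in right shunt atria, and 11.73, 11.25 and 11.26 in left sham and 11.77, 11.96 and 11.86 in left shunt atria. The groups overlapped in neither atrium, although left sham replicate 1 lay just under the lowest left shunt array. Its mean difference was 0.47 ± 0.09 (limma, adjusted p = 0.0153), a rise of 1.38-fold. Rsad2, the antiviral enzyme viperin, measured 7.72, 7.04 and 7.30 in right sham and 7.56, 7.58 and 7.63 in right shunt atria, and 6.98, 7.07 and 7.23 in left sham and 7.64, 7.63 and 7.53 in left shunt atria. The right groups overlapped through sham replicate 1, and the left groups did not. The mean difference was 0.37 ± 0.09 (limma, adjusted p = 0.0456). RT1-DMb and RT1-Da gave 0.72 ± 0.10 and 0.56 ± 0.08 (limma, adjusted p = 0.00197 and 0.00221). These 2 and Ifi27 passed without any of the 12 arrays, whereas Rsad2 was lost after quantile normalization again and without any array other than right sham replicate 1 and left shunt replicate 3 (adjusted p up to 0.105 over all alternatives).

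In the right atrium 4 of 66 (6.06%) passed, 3 higher and 1 lower, against 3.97% of all genes, 2.83% higher and 1.14% lower. In the left atrium 2 of 66 (3.03%) passed, both higher, against 0.935% of all genes, 0.373% higher and 0.563% lower. For the mean of both atria the 4 calls (6.06%) stood against 5.25%, of which 3.4% were higher and 1.86% lower. The share of the 66 genes was thus above that of all genes in each comparison, in proportion most on the left, where it rested on 2 genes, and counts this small are not a result about the set. At an unadjusted p under 0.05 stood 30.3% of the members on the right, 19.7% on the left and 37.9% over both atria, beside 22.4%, 14.7% and 21.2% of all genes. The groups did not overlap for 22 of the 66 genes on the right and 10 on the left, against 32.1% and 19.1% of all genes. The median difference of the 66 genes was 0.16 on the right and 0.07 on the left, beside 0.02 and -0.01 over all genes, and 45 and 46 of the 66 differences were above 0.

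**Figure D2:**
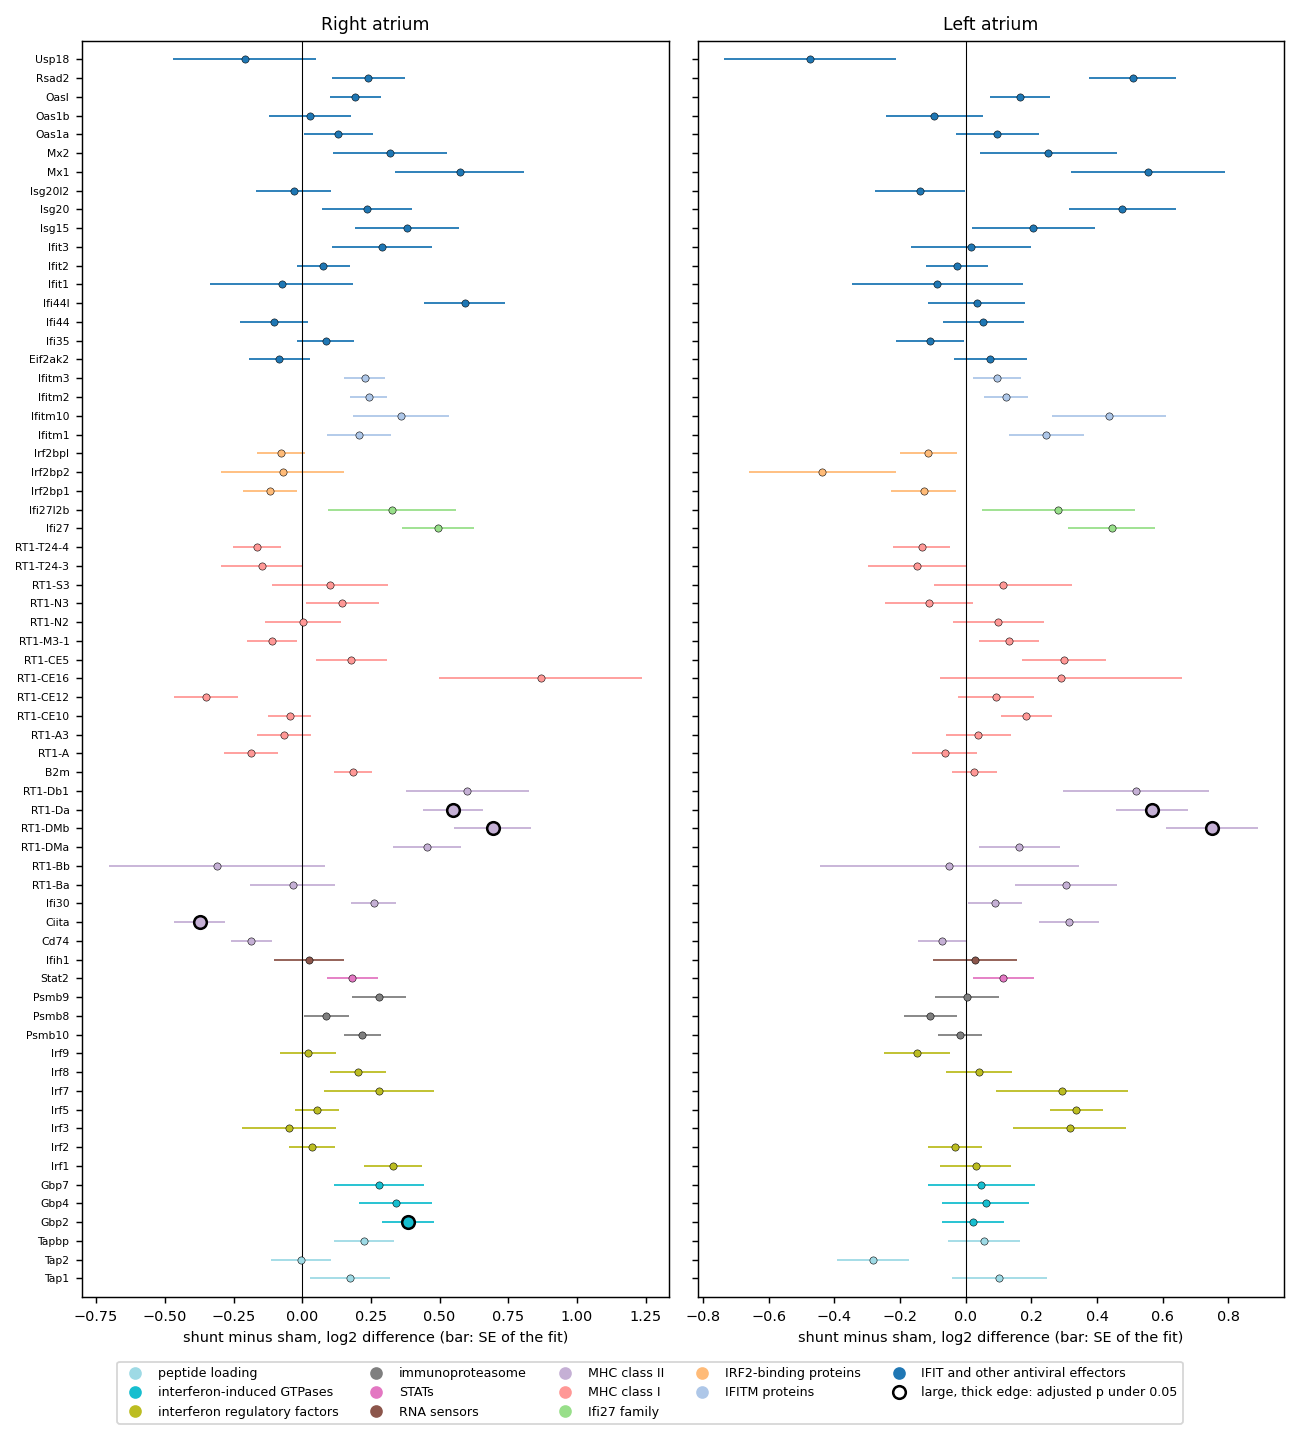
Log2 difference between shunt and sham for each of the 66 genes in the right and left atrium, coloured by role; bars are the SE of the fit and large points with a thick edge passed adjusted p under 0.05. RT1-DMb and RT1-Da pass in both atria, Gbp2 and Ciita in the right, and most of the other genes lie within 0.4 of 0.

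Among the regulators, 0 of the 7 interferon regulatory factors passed in either atrium. Irf7, the factor that amplifies type I interferon production, gave 0.28 ± 0.20 and 0.29 ± 0.20, and Irf1, which mediates much of the response to interferon gamma, gave 0.33 ± 0.11 and 0.03 ± 0.11. Irf8, needed by macrophages and dendritic cells, gave 0.20 ± 0.10 and 0.04 ± 0.10. Stat2, which pairs with Irf9 downstream of type I interferon receptors, gave 0.18 ± 0.09 and 0.11 ± 0.09, and neither difference passed.

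Of the 17 IFIT and other antiviral effectors 0 passed in either atrium alone. Ifi44l measured 5.59, 5.66 and 5.82 in right sham and 6.07, 6.53 and 6.25 in right shunt atria without overlap, and its difference of 0.59 ± 0.15 stood just outside the threshold (limma, adjusted p = 0.0513). On the left it was 0.03 ± 0.15. Mx1, a GTPase that blocks viral replication, gave 0.57 ± 0.23 and 0.55 ± 0.23, and Isg15, a ubiquitin-like modifier, gave 0.38 ± 0.19 and 0.21 ± 0.19. All 4 genes of the IFITM family, some of whose membrane proteins hinder virus entry, had differences above 0 in both atria. These ran from 0.21 to 0.36 on the right and from 0.09 to 0.44 on the left, with Ifitm10 the highest in each, and 0 of 4 passed. Ifitm2 was closest, at 0.24 ± 0.07 on the right (limma, adjusted p = 0.0728).

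The machinery of class I presentation did not pass after shunt. The immunoproteasome subunits Psmb8, Psmb9 and Psmb10 gave 0.09 ± 0.08, 0.28 ± 0.10 and 0.22 ± 0.07 on the right and -0.11 ± 0.08, 0.00 ± 0.10 and -0.02 ± 0.07 on the left. The peptide transporter chains Tap1 and Tap2 gave 0.17 ± 0.14 and 0.00 ± 0.11 on the right and 0.10 ± 0.14 and -0.28 ± 0.11 on the left. Tapbp, the tapasin that holds class I molecules at the transporter, gave 0.22 ± 0.11 and 0.06 ± 0.11. Tap2 on the left had the smallest p of the peptide loading genes in either atrium (limma, unadjusted p = 0.0226, adjusted p = 0.275). Of the 13 class I genes 0 passed in either atrium. B2m gave 0.19 ± 0.07 and 0.03 ± 0.07, and the widest right-sided difference, that of RT1-CE16 at 0.87 ± 0.37, came with values of 5.12, 6.59 and 6.05 on the shunt arrays against 5.31, 5.08 and 4.77 in sham, which overlapped through shunt replicate 1.

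The effect of the shunt was not shown to differ between the atria for any member. In the test of that difference 0 of 66 genes passed adjusted p under 0.05 by limma, against 0.0281% of all genes, 0.0281% higher in the left and 0% lower, and 6 of 66 had an unadjusted p under 0.05. Ciita had the smallest p, with a left-minus-right difference of the shunt effects of 0.69 (adjusted p = 0.122). Its second probe set gave -0.16, the opposite sign (limma, adjusted p = 0.604). RT1-CE12 followed with 0.44, Gbp2 with -0.36, Ifi44l with -0.56 and Psmb10 with -0.24 (limma, adjusted p = 0.262 to 0.289).

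Genes upstream and alongside the members are given by list, beside shares of 3.97% on the right and 0.935% on the left for all genes, and with so few calls a list's count is no result about that list. Of 18 measured interferon ligands, receptors and signalling genes, 1 rose in the right atrium and 0 passed in the left: Ifngr1, a chain of the interferon gamma receptor, with 0.35 ± 0.08 on the right (limma, adjusted p = 0.0393). Of 12 genes that sense foreign nucleic acid or microbial products, Tlr4, the lipopolysaccharide receptor, rose on the right by 0.63 ± 0.13 (limma, adjusted p = 0.024) and 0 passed on the left. Of 23 other interferon-stimulated genes, Ly6e, a surface protein anchored by lipid, rose on the right by 0.55 ± 0.13 (limma, adjusted p = 0.042) and 0 passed on the left. Of 25 other genes of antigen processing, the lysosomal protease Ctss rose by 0.47 ± 0.11 and the proteasome activator Psme4 by 0.42 ± 0.07 on the right (limma, adjusted p = 0.0472 and 0.00819). On the left Nfyb, a subunit of the factor that binds the Y box of class II promoters, fell by 0.63 (limma, adjusted p = 0.0348). Of 13 constitutive proteasome subunits 0 passed in either atrium.

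Markers of macrophages, which carry class II molecules, were also higher in the right atrium. Of 13 measured macrophage markers 4 rose on the right (Mrc1, Aif1, Lyz2 and Fcgr1a), where 2.83% of all genes rose, and 0 passed on the left. Their mean was 7.02 to 7.13 in right sham against 7.48 to 7.57 in right shunt atria, and 6.82 to 6.87 in left sham against 7.14, 7.20 and 6.67 in left shunt replicates 1 to 3. Left shunt replicate 3 was the lowest array both for this mean and, within the left shunt group, for RT1-DMb, RT1-Da and RT1-Db1. The mean of 3 measured dendritic cell markers was 4.66 to 5.05 and that of 3 measured B cell markers 3.91 to 4.28 over all arrays, and 7 of 10 T cell markers lay below 5 in every group. Of 7 measured natural killer cell markers 2 fell on the right, where 1.14% of all genes fell, and 0 passed on the left. These were Klrd1 and Gzmb, by 0.51 and 0.35 (limma, adjusted p = 0.0148 and 0.0451), and both lay below 5 in every group mean. Of 9 measured endothelial markers, Esam, an adhesion molecule, rose on the right by 0.37 ± 0.08 (limma, adjusted p = 0.0341) and 0 passed on the left. Their mean was 8.66 to 8.71 in right sham against 8.82 to 8.93 in right shunt atria, 8.86 to 8.88 in left sham and 8.82 to 8.93 in left shunt atria, so that the right sham arrays lay below the other 9, as they did for Gbp2. The part of these cells in the shunt differences of the members was not tested.

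**Figure D3:**
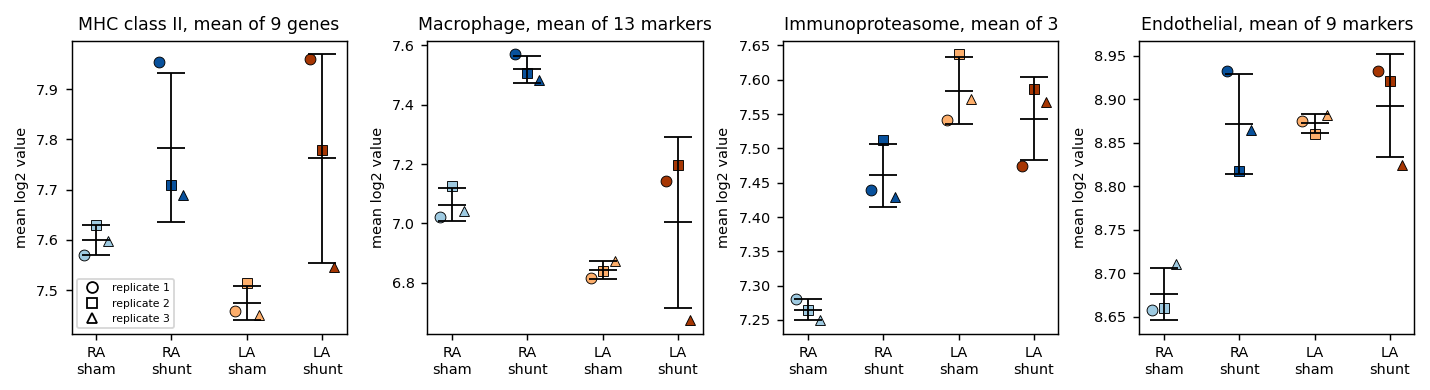
Mean log2 value per array of the 9 class II genes, 13 macrophage markers, 3 immunoproteasome genes and 9 endothelial markers (RA, right atrium; LA, left atrium; bars, mean and SD of 3 arrays). The macrophage mean is 7.48 to 7.57 in right shunt against 7.02 to 7.13 in right sham atria, and the immunoproteasome mean is lowest in right sham atria.

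The promoters of genes that passed after shunt are shown for the motif letters they hold, with RT1-Da as the 1 class II gene among them, since RT1-DMb and Ciita had no entry. Windows run from 250 bases before to 50 bases after the start of the gene, in RefSeq sequence of rat build GRCr8, and 55 of the 66 genes had an entry, as did 4 of the 6 genes called. RT1-Da lies at chr20:4515165-4515464 on the plus strand, Ifi27 at chr6:128355062-128355361 on the plus strand, Rsad2 at chr6:48788071-48788370 on the minus strand and Gbp2 at chr2:234005477-234005776 on the plus strand. Capitals mark the ISRE core in Ifi27, Rsad2 and Gbp2 and the Y box core in RT1-Da, and each window is printed 5′ to 3′ along the gene.
RT1-Da: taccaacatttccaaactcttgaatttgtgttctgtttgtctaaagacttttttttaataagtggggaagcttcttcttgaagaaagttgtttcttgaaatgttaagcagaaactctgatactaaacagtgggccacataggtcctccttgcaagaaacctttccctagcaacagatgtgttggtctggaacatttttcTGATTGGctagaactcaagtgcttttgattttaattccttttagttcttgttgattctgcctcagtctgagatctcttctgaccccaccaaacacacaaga
Ifi27: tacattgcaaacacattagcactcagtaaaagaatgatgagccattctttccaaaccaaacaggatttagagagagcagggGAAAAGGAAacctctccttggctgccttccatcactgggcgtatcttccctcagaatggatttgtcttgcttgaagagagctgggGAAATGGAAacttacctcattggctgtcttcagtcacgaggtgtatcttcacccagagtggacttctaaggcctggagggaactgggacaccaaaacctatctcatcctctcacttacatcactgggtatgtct
Rsad2: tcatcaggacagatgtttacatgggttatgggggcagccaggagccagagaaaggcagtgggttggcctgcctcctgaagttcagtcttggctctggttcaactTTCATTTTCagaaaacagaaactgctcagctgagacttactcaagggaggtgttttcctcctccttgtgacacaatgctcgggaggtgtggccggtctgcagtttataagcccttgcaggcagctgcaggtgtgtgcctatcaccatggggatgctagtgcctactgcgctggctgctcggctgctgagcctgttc
Gbp2: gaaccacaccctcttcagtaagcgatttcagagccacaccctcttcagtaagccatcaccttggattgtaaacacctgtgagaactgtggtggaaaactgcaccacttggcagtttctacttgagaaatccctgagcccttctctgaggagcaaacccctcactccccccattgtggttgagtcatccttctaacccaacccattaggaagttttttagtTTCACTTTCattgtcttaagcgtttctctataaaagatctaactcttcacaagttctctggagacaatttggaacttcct

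The letters searched were GAAANNGAA for the ISRE core, TTCNNNGAA for the GAS core, which reads the same on both strands, and TGATTGG for the Y box core, the last chosen after the promoters were seen, all on both strands. Ifi27 held 2 ISRE cores, whose first bases lie at -169 and -84 from the start, Rsad2 and Gbp2 held 1 each, and RT1-Da held none. The ISRE core was present in 25 of the 55 windows (45.5%), and in 22 of 36 outside the MHC genes (61.1%), beside 9.71% of all 33469 windows. The GAS core was present in 11 of 55 (20%) beside 8.87%. Of 7 class II windows 0 held either core and 5 (71.4%) held the Y box core, those of RT1-Ba, RT1-Bb, RT1-DMa, RT1-Da and RT1-Db1, beside 7.06% of all windows. The Y box core was not particular to class II. It was present in 15 of the 55 windows (27.3%), and in 3 of 36 outside the MHC genes (8.33%). The class I genes RT1-A3, RT1-CE5, RT1-CE16, RT1-M3-1, RT1-N3, RT1-S3 and RT1-T24-3 held it too. ISRE and GAS cores can overlap in a window, and a match describes the letters only.

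Left and right atria differed in more of these genes than shunt and sham did, as was the case for genes at large, of which 37.6% differed between the atria in sham and 40.5% after shunt. In sham animals the subunits of the immunoproteasome and the peptide loading genes were all higher in the left atrium, 3 of 3 in each group. Tap2 was 2.52-fold higher in the left atrium in sham and 2.08-fold higher after shunt. Ifitm10, a relative of the antiviral IFITM proteins, was 2.92-fold and 2.76-fold higher in the right atrium.

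Tap2 measured 5.41, 5.48 and 5.39 in right sham and 6.56, 6.80 and 6.91 in left sham atria. After shunt it measured 5.34, 5.57 and 5.36 on the right and 6.48, 6.65 and 6.31 on the left. All left arrays lay above all right arrays. The left-minus-right difference was 1.33 ± 0.11 in sham and 1.05 ± 0.11 after shunt (limma, adjusted p = 3.19e-06 and 2.57e-05).

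Ifitm10 measured 7.34, 6.94 and 7.24 in right sham and 5.79, 5.49 and 5.60 in left sham atria. After shunt it measured 7.58, 7.56 and 7.45 on the right and 6.32, 6.30 and 5.57 on the left. All left arrays lay below all right arrays, and left shunt replicate 3 stayed near the left sham values. The differences were -1.54 ± 0.17 and -1.47 ± 0.17 (limma, adjusted p = 3.07e-05 and 6.61e-05). Ifitm1 went the same way, with -0.53 ± 0.11 and -0.49 ± 0.11, whereas Ifitm2 and Ifitm3 were higher in the left atrium in sham, by 0.27 ± 0.07 and 0.21 ± 0.07.

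In sham atria Psmb8 measured 7.12, 7.20 and 7.05 on the right and 7.45, 7.65 and 7.47 on the left, a difference of 0.40 ± 0.08 (limma, adjusted p = 0.00196). Psmb9 gave 0.32 ± 0.10 and Psmb10 0.24 ± 0.07 (limma, adjusted p = 0.0233 and 0.0129). Tap1 and Tapbp gave 0.45 ± 0.14 and 0.38 ± 0.11 (limma, adjusted p = 0.028 and 0.0144). The Tap1 call rested on the brighter of its 2 probe sets, since the other gave -0.05 and the mean of both 0.20 (limma, adjusted p = 0.0827). After shunt the corresponding differences were 0.20, 0.04 and 0.01 for the immunoproteasome genes, of which 0 passed, and Tap2 was the only peptide loading gene that passed. In the interaction, which tests whether the left-right difference changed with the shunt, 0 of these 6 genes passed (limma, adjusted p = 0.289 to 0.898), so a change was not shown.

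Among the other class I and class II genes, RT1-A, a classical class I heavy chain, was higher in the left atrium by 0.51 ± 0.10 in sham and 0.64 ± 0.10 after shunt (limma, adjusted p = 0.00148 and 0.000411). RT1-N2, a class I gene, was also higher in the left by 0.48 ± 0.14 and 0.57 ± 0.14, and B2m by 0.23 ± 0.07 in sham. A second B2m probe set ran the other way at -0.18, and with the mean of both the difference was 0.03 and did not pass (limma, adjusted p = 0.145 and 0.774). RT1-T24-4 was lower in the left by 0.31 and 0.28 on the log2 scale. Cd74 was higher in the left by 0.31 ± 0.07 in sham and 0.42 ± 0.07 after shunt (limma, adjusted p = 0.00627 and 0.000934). RT1-DMb went the other way in sham, at -0.42 ± 0.14 (limma, adjusted p = 0.0326). Ifi30 was higher in the left by 0.32 ± 0.08 in sham, and RT1-DMa lower by 0.41 after shunt.

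Among effectors and regulators, Eif2ak2, the kinase that halts translation on sensing double-stranded RNA, was lower in the left atrium in sham (-0.53 ± 0.11) and after shunt (-0.37 ± 0.11). Ifit2, which binds foreign RNA, was lower there by 0.28 and 0.38, although the mean of its probe sets gave -0.13 in sham and did not pass (limma, adjusted p = 0.328). Isg20l2, a nuclease of ribosomal RNA processing that resembles Isg20, was higher in the left by 0.62 ± 0.14 and 0.51 ± 0.14, and so was Irf2bp1, a corepressor partner of Irf2, by 0.57 ± 0.10 and 0.56 ± 0.10. Gbp2 and Gbp7 were higher in the left in sham, by 0.38 ± 0.09 and 0.51 ± 0.16, and gave 0.02 ± 0.09 and 0.28 ± 0.16 after shunt, which did not pass. The interaction passed for neither (limma, adjusted p = 0.262 and 0.671). After shunt Ifi44l and Irf8 were lower in the left, at -0.61 ± 0.15 and -0.39 ± 0.10, and Irf5, a factor of macrophage activation, was higher by 0.24 ± 0.08. RT1-N3 was lower in the left after shunt by 0.40. Ciita gave -0.43 ± 0.09 in sham and 0.26 ± 0.09 after shunt (limma, adjusted p = 0.00301 and 0.0422), and the interaction that tests this change did not pass (adjusted p = 0.122). Its second probe set gave -0.00 and -0.17, and with the mean of both the difference after shunt was 0.05 and did not pass (limma, adjusted p = 0.61).

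These calls were no more frequent than among genes at large. In sham 24 of 66 (36.4%) differed between the atria, 17 higher and 7 lower in the left, against 37.6% of all genes, 22.2% higher and 15.4% lower. After shunt 17 of 66 (25.8%) differed, 8 higher and 9 lower, against 40.5% of all genes, 21% higher and 19.4% lower. Of the calls, 16 in sham and 11 after shunt, Tap2 and Ifitm10 among them, passed without any of the 12 arrays, and the others, such as Psmb9, Tap1, B2m, Gbp7 and Ifitm3 in sham, were lost without at least 1. Both comparisons together called 29 of the 66 genes, 6 of them higher and 5 lower in the left in sham and after shunt alike, and 1, Ciita, on opposite sides. Of 9 endothelial markers 5 were higher and 1 lower in the left in sham, with array means of 8.66 to 8.71 on the right and 8.86 to 8.88 on the left, and 4 of 13 macrophage markers were lower in the left. The part of these cells in the left-right differences was not tested. Nor was that of the actin 3′-minus-5′ difference, which was higher on every right array than on every left array.

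**Figure D4:**
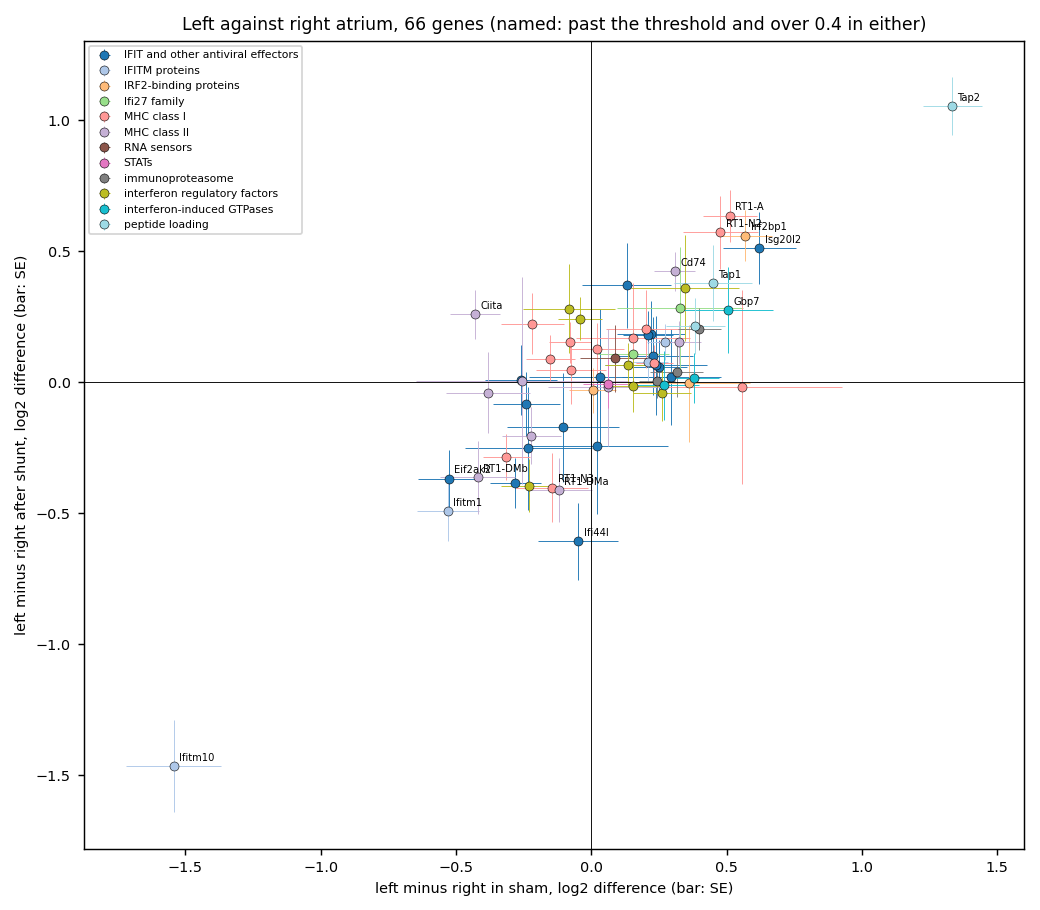
Left-minus-right log2 difference of each of the 66 genes in sham (horizontal axis) and after shunt (vertical axis), coloured by role; bars are the SE of the fit. Tap2 (1.33 and 1.05) and Ifitm10 (-1.54 and -1.47) lie far from the other genes on both axes.

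The level of several interferon genes varied between the pools of a group, and in the same way in the right and the left atrium. Irf7 measured 7.93, 7.36 and 7.87 in right sham and 8.33, 7.66 and 8.20 in left sham replicates 1 to 3, so that replicate 2 was lowest in both atria. After shunt it measured 7.92, 8.23 and 7.84 on the right and 8.30, 8.67 and 8.10 on the left, with replicate 2 highest in both. The gap between the pools was wider than the shunt difference of 0.28.

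Usp18, which removes Isg15 from proteins and damps interferon signalling, measured 7.82, 6.93 and 7.50 in right sham and 7.60, 7.15 and 7.57 in left sham atria. After shunt it measured 6.89, 7.62 and 7.12 on the right and 6.46, 7.34 and 7.09 on the left. Replicate 1 was the highest sham array and the lowest shunt array in both atria. Mx1 measured 4.68, 5.54 and 5.06 in right shunt and 4.28, 5.30 and 4.94 in left shunt atria, where replicate 1 lay at the sham level of 4.41 to 4.70 on the right and 4.23 to 4.37 on the left. Isg15 measured 6.69, 7.40 and 6.89 in right shunt and 6.78, 7.23 and 7.17 in left shunt atria, and again replicate 2 was highest and replicate 1 lowest.

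The 3 replicate numbers stood in the same order in both atria for 26 of the 66 genes in sham (39.4%) and 31 after shunt (47%), beside 19.3% and 19.5% of all genes. For 14 genes (21.2%), Irf7, Usp18, Mx1, Isg15 and RT1-DMb among them, the order was shared within sham and within shunt, beside 3.83% of all genes. In a limma F test for differences between the numbers shared by both atria, chosen after the data were seen, 27 of 66 genes (40.9%) had an unadjusted p under 0.05 beside 6.1% of all genes, and 1, RT1-Bb, passed the adjusted threshold, against 0.0281% of all genes. The genes of a set that move together are not independent of each other, so these counts carry no test of their own.

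RT1-Bb, a class II beta chain, measured 7.66, 5.90 and 6.61 in right shunt and 7.61, 6.07 and 6.52 in left shunt atria, against 6.71 to 7.12 on all sham arrays. Replicate 1 was the highest and replicate 2 the lowest shunt array in both atria (limma F test, adjusted p = 0.0129). Its second probe set read the opposite order, with 4.45, 7.12 and 6.91 in right shunt and 4.30, 7.89 and 6.20 in left shunt atria against 3.60 to 3.97 in sham (adjusted p = 0.0426). The mean shunt difference of RT1-Bb was -0.18 ± 0.28 by the first probe set and 2.38 by the second, and the second passed (limma, adjusted p = 0.797 and 0.029).

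Mx2, a relative of Mx1, gave a similar split. Its second probe set measured 5.20, 3.33 and 4.70 in right sham and 5.29, 3.16 and 4.70 in left sham atria, and 2.997 to 3.46 on all shunt arrays (limma F test, adjusted p = 0.00214). Sham replicates 1 and 3 were thus high in both atria and every other array low. The first Mx2 probe set lay between 4.83 and 6.02 on all arrays and measured 5.26, 5.12 and 5.03 in right sham and 5.16, 4.83 and 5.12 in left sham atria. Replicate 2 was the lowest array in left sham but not in right sham, by less than in the second probe set.

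**Figure D5:**
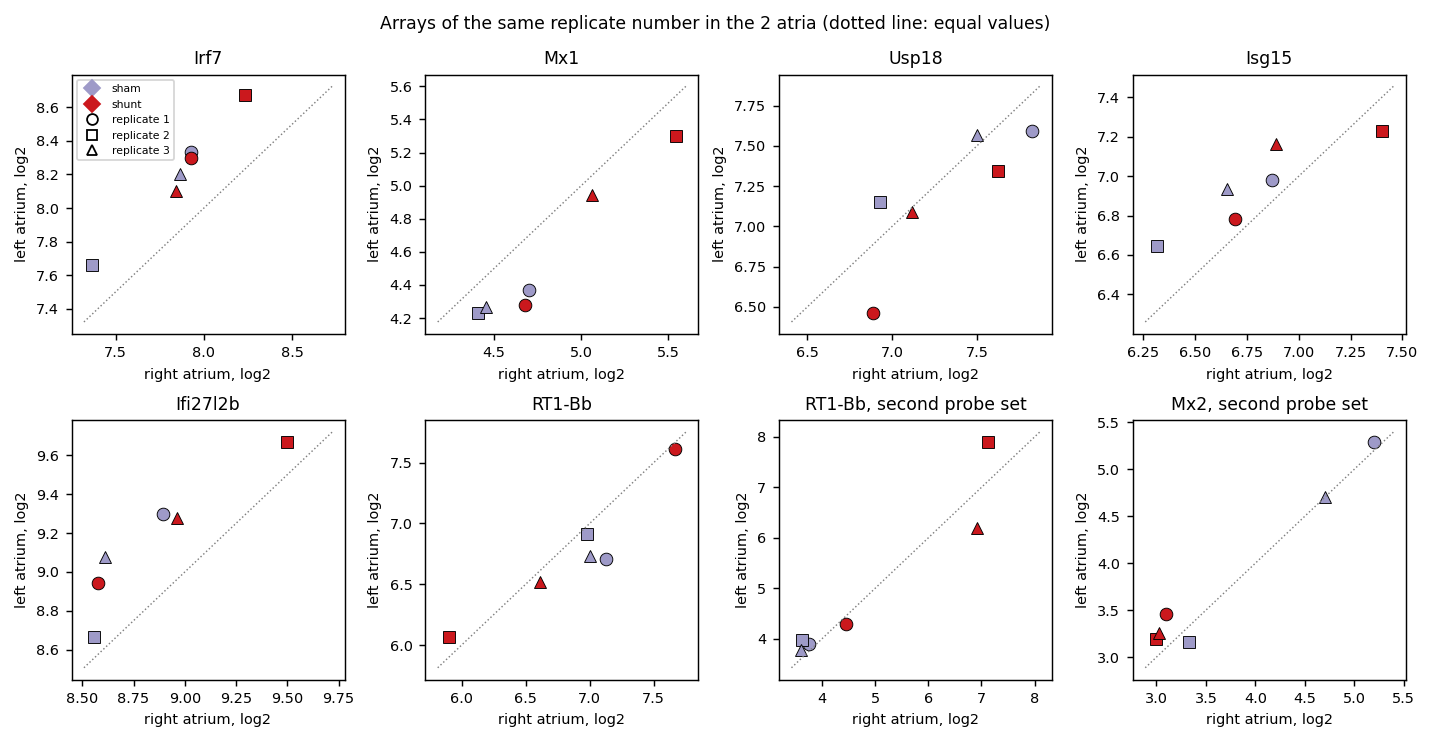
Right atrial against left atrial log2 value of arrays with the same replicate number, for 6 genes and the second probe sets of RT1-Bb and Mx2; colour gives the operation, symbols the replicate number, and the dotted line equal values. Arrays of the same number lie at similar heights in the 2 atria, with shunt replicate 2 highest for Irf7, Mx1, Isg15 and Ifi27l2b and lowest for RT1-Bb.

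Probe sets of RT1-Ba, a class II alpha chain with 4 of them, also disagreed. In the right atrium 1 measured 7.42, 7.24 and 7.16 in sham and 7.75, 7.67 and 7.68 after shunt and rose by 0.43 (limma, adjusted p = 0.0432). Another measured 6.89, 7.09 and 6.91 in sham and 6.33, 6.39 and 6.42 after shunt and fell by 0.58 (adjusted p = 0.00396). The third fell by 0.49, and the probe set that stands for the gene here did not pass at -0.04 ± 0.15. The direction of RT1-Ba after shunt therefore depended on the probe set.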

How the data were processed

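The deposited log2 values of 31099 probe sets on 12 arrays were made by the authors with RMA, which corrects background, normalizes between arrays and summarises each probe set, per the submitters' processing notes. The RMA version is not given in the sources used here. Probe sets were named through the platform annotation: 20826 had 1 gene, 436 several and 9780 none. After 57 control probe sets were left out, 31042 were fitted together in limma 3.58.1 (R 4.3.3), with a mean for each of the 4 groups, moderated spread and two-sided p-values adjusted by Benjamini-Hochberg over all 31042. The threshold was 0.05. Each gene was represented by its probe set with the highest mean, and 65 of the 66 members matched RefSeq by gene ID. Shares of all genes were counted over 14217 genes with 1 probe set each. SE is the standard error of the fit.

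Groups and replicate numbers came from the sample titles. Members, gene lists, markers and the naming rule (members past the threshold, the most strongly read of each role and the preset regulators and presentation genes) were chosen with earlier results of these data known. The Y box letters and the F test over replicate numbers were added after the data were seen. The number of arrays limits the precision, and each array stands for a pool, so the p-values measure the spread between pools. Alternatives changed the filter (without probe sets below 5), the scaling (a further quantile step, or array medians set equal), the spread (trended and robust eBayes, weights per array, only the compared arrays, or a block for the replicate number) and the reading of a gene (a fit of 1 probe set each, or the mean of its probe sets), and left out each array in turn. The limma fit and the F test were tested on simulated data.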

Additional observations from a re-analysis of the deposited data

Results flagged for a closer look

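Ciita, the class II transactivator, was flagged because its difference between shunt and sham ran opposite ways in the 2 atria, with all right shunt arrays below right sham and all left shunt arrays above left sham. The left-minus-right difference of the 2 effects was 0.69, and the test of that difference did not pass over all probe sets (limma interaction, adjusted p = 0.122).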

How the results depend on the processing

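The right-sided count of 4 genes became 7 without dim probe sets, 2 after quantile normalization again, 8 with trend and robust options, 12 with array weights, 8 with 1 probe set per gene, 8 with the mean of a gene's probe sets and 2 without the RT1 genes. The left-sided count of 2 became 4 with the mean of probe sets, 0 when only the arrays compared were fitted and 0 without the RT1 genes. The count of 4 over both atria became 7 with trend and robust options, 10 with array weights, 7 with 1 probe set per gene, 9 with the mean of probe sets and 2 without the RT1 genes. Leaving out each array gave 0 to 8, 0 to 5 and 3 to 10 for these counts, the highest each time without left shunt replicate 3, and 18 to 27, 12 to 18 and 0 for left against right in sham, left against right after shunt, and the interaction. With the mean of a gene's probe sets the shunt difference of RT1-Bb turned to 1.10 in the right, 1.10 in the left and 1.10 over both atria, and the left-minus-right difference of RT1-CE5 to 0.36 in sham and of Irf2bpl to 0.42 after shunt, all of which then passed. Without left shunt replicate 3 the left-minus-right difference of Irf2bp2 after shunt turned to 0.36 and passed, and it ranged from -0.22 to 0.36 as each array was left out. The replicate block gave 3, 2, 3, 0, 23 and 18 calls for the right, left and mean shunt effects, the interaction, and left against right in sham and after shunt. The calls it ended were those of Gbp2 and Ciita on the right, Rsad2 over both atria and Ifitm3 between the atria in sham (limma, adjusted p = 0.0753, 0.0554, 0.0601 and 0.053). With the number within operation as a random block Rsad2 was also lost (limma, adjusted p = 0.0613). With it as a fixed block Ifitm3 in sham and RT1-N3 after shunt were lost (limma, adjusted p = 0.0506 and 0.0596). The fixed block nevertheless raised the left-right calls from 24 to 30 in sham and from 17 to 21 after shunt. Over all genes the deviations of same-numbered right and left arrays correlated at 0.07 to 0.19. Those of differently numbered arrays of the same operation correlated at -0.13 to 0.02. The labels do not say whether same-numbered arrays share animals, and these correlations do not settle it. Over the 66 genes the correlations of same-numbered arrays were 0.52, 0.43 and 0.39 in sham and 0.82, 0.75 and 0.11 after shunt for replicates 1 to 3. The 66 genes are not independent of each other. Dimness limits Ciita, Mx1 and the 6 members below 5 in every group, Gbp4 and RT1-N2 among them.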

Other observations

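RT1-S3, a class I gene read by 4 probe sets, was another gene whose pools kept their order in both atria. The probe set with the highest mean gave 7.40, 8.12 and 7.68 in right shunt and 7.66, 8.31 and 7.73 in left shunt replicates 1 to 3, and 7.70, 7.55 and 7.64 in right sham and 8.04, 7.39 and 7.93 in left sham. Shunt replicate 2 was the highest and sham replicate 2 the lowest array of its group in both atria, while the shunt differences of 0.10 ± 0.21 and 0.11 ± 0.21 did not pass (limma, adjusted p = 0.844 and 0.86).

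Irf2bpl, a relative of the Irf2 corepressor partners, had 3 probe sets. The probe set with the highest mean gave a left-minus-right difference of 0.00 ± 0.09 in sham, and another gave 1.09 ± 0.14 in sham and 0.98 ± 0.14 after shunt (limma, adjusted p = 8.48e-05 and 0.000247). In left shunt replicate 3, Irf2bp2 measured 8.11 against 9.16 to 9.33 on the other left arrays, and Irf3, a factor that starts type I interferon transcription, measured 8.57 against 7.62 to 7.92.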
